A study of Mus musculus with 12 samples.

Results

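The subject is the nuclear-encoded subunits of the mitochondrial oxidative phosphorylation complexes, measured by RNA-seq. The material is cultures that the paper names mouse bone marrow mesenchymal stem cells (MSCs), in which the chromatin remodeller gene Chd7 was targeted. Macrophage transcripts were abundant in every library, as given below, so the levels are those of whole cultures. The members are the nuclear protein-coding genes whose GENCODE M21 symbol names a subunit of complex I (Ndufa, Ndufb, Ndufc, Ndufs or Ndufv with a number), complex II (Sdha to Sdhd), complex III (Uqcr genes and Cyc1), complex IV (Cox4 to Cox8 genes) or complex V (Atp5 genes). Factors that help to assemble the complexes were left out of the members. The rule found 86 genes among 54532 in the table, and 81 of them were among the 12871 genes tested. A gene was tested if it reached 1 FPKM (fragments per kilobase of exon, scaled for depth) in at least 3 of 12 libraries. The tested members comprise 36 genes of complex I, of which 7 encode its catalytic core, 4 of complex II, 9 of complex III, 15 of complex IV and 17 of complex V.

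Oxidative phosphorylation is the pathway by which mitochondria burn the hydrogen of nutrients to make ATP. Complexes I and II pass electrons to ubiquinone, complex III hands them on through cytochrome c to complex IV, which reduces oxygen, and complex V uses the proton gradient built on the way to make ATP. Most subunits are encoded in the nucleus and a few in mitochondrial DNA, and in MSCs the pathway is known to gain in importance over glycolysis as the cells differentiate towards bone or fat.

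All cells came from 4-week-old mice of strain C57BL/6 and were used at passage 3, after bone marrow had been flushed from femurs, tibiae and humeri. Control cells carried the floxed alleles alone (Chd7fl/fl), and cells labelled knockout carried them with a Cre transgene (Prx1-cre;Chd7fl/fl), whose Prx1 promoter is active in the early limb mesenchyme and which deletes exon 2 of Chd7. RNA was taken after 5 days of induction in osteogenic medium (10 mM β-glycerophosphate, 50 μM ascorbic acid and 10 nM dexamethasone) or in adipogenic medium (10 μg/ml insulin, 1 μM dexamethasone and 0.5 μM isobutylmethylxanthine). This gave 4 groups of 3 libraries, and the comparisons ask how the targeting of Chd7 and the medium bear on the transcripts of the respiratory chain.

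The fragments recovered on genes numbered 18887198, 17496340 and 18540411 in control libraries 1 to 3 in osteogenic medium and 18648028, 18688617 and 18801834 in libraries 1 to 3 labelled knockout. In adipogenic medium they numbered 19152673, 21099602 and 18641501 in the control libraries and 18898702, 18747776 and 18982220 in those labelled knockout. At this depth 3 fragments on a gene with 1 kb of exons amount to 0.143 to 0.185 FPKM. Values are listed in the order of libraries 1, 2 and 3 of each group. Differences are log2 differences of FPKM + 1, a scale that understates changes in genes of low level, and a difference is said to rise or fall where limma gave an adjusted p under 0.05 over all genes tested. The labels do not say whether the 3 libraries of a group came from separate animals, so each p measures the spread between these samples.

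Chd7 (ENSMUSG00000041235) stood at 2.64, 2.67 and 2.77 FPKM in control and 2.03, 2.35 and 2.28 FPKM in libraries labelled knockout in osteogenic medium, and 2.26, 1.81 and 2.23 FPKM in control and 2.03, 2.35 and 2.48 FPKM in libraries labelled knockout in adipogenic medium. In osteogenic medium every library labelled knockout lay below every control library, with a log2 difference of -0.20 (limma adjusted p 0.160). In adipogenic medium the groups overlapped, with a log2 difference of 0.09 (limma adjusted p 0.428), and the interaction of genotype and medium was 0.28 (adjusted p 0.0987). Without control library 2 in adipogenic medium these were 0.02 (adjusted p 0.870) and 0.21 (adjusted p 0.103). Between the media in control libraries Chd7 had -0.25 (limma adjusted p 0.0431), and -0.18 (adjusted p 0.0590) without control library 2. After adipogenic induction Chd7 was thus no lower in libraries labelled knockout than in control. Libraries are therefore named by their label throughout, and reads over the deleted exon were not analysed here.

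Control library 2 in adipogenic medium stood apart from the other control libraries of its group. The mean squared difference between libraries of a group, in units of counting error, was 130.3 and 125.9 per gene for this library against control libraries 1 and 3, and 8.63 between those. In adipogenic medium library 1 labelled knockout gave 23.1 and 20.3 against libraries 2 and 3 of its group, and those gave 3.26. The osteogenic groups gave 2.63 to 3.66. For the members named as past the threshold, differences from the adipogenic control group are given with and without control library 2. Without it the control group has 2 libraries.

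Mesenchymal markers were present, with 9 of 11 at 1 FPKM or more in every library and Lepr and Thy1 lower. Their summed level was 1446, 1273 and 1346 FPKM in control and 1569.9, 1424 and 1573 FPKM in libraries labelled knockout in osteogenic medium, and 1908, 1636 and 1721 FPKM and 1760.1, 1817 and 1806 FPKM in adipogenic medium. Of the 9 tested, 4 rose in osteogenic libraries labelled knockout (Cxcl12 0.64, Col1a2 0.28, Itgb1 0.22 and Prrx1 0.20), of which only Cxcl12 kept its call whichever library was left out. In adipogenic medium 4 rose (Pdgfrb 0.82, Eng 0.40, Prrx1 0.39 and Itgb1 0.20) and 2 fell (Ly6a -0.90 and Cxcl12 -0.39), and these calls were kept. Macrophage markers were also present, 15 of 15 at 1 FPKM or more in every library. In every library the macrophage sum was above the mesenchymal sum. The lists hold different genes, so the sums do not give shares of cells. The macrophage sum was 16914, 17393 and 17442 FPKM in control and 18400.5, 18049 and 17911 FPKM in libraries labelled knockout in osteogenic medium. With adipogenic medium the sum was 21468, 11801 and 21146 FPKM in control and 11224, 9623 and 9883 FPKM in libraries labelled knockout. The most abundant marker was Lyz2, at 8957, 9355 and 9234, then 11249, 11033 and 11056, then 13878, 5456 and 14412, then 5010.3, 3845 and 3986 FPKM in the same order of groups. Control library 2 in adipogenic medium is close to the libraries labelled knockout in this sum. In osteogenic medium this sum is higher in libraries labelled knockout through Lyz2, while 13 of 15 markers had differences below 0 (median -0.15), with 3 called lower by limma (Csf1r -0.68, Ctss -0.37 and C1qb -0.34) and 1 higher, of which only Ctss kept its call whichever library was left out. Of the 15 macrophage markers, 9 fell and 2 rose in libraries labelled knockout in adipogenic medium, and the part of either list in the members' results was not tested. In RNA from whole cultures fewer cells of a type cannot be told from less RNA per cell.

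Markers of other lineages were present in part. Of 8 adipocyte markers, 3 were at 1 FPKM or more in every library, Lpl the most abundant, and Adipoq, Plin1, Cidec, Retn and Lep stayed under 1 FPKM. Their sum was 157, 161 and 144 FPKM in control and 88.0, 93.4 and 82.0 FPKM in libraries labelled knockout in osteogenic medium, and 71.7, 95.8 and 71.4 and 122, 134 and 116 FPKM in adipogenic medium. Libraries labelled knockout were lower in the former and higher in the latter medium. The same holds for Fabp4, at -0.68 (limma adjusted p 0.0118), lost without knockout 3 (log2 -0.63, adjusted p 0.0569), and 1.29 (limma adjusted p 9.80e-05), which was 1.48 (adjusted p 2.01e-07) without control library 2. Of 6 osteoblast markers Alpl was the most abundant, at 4.41 to 57.5 FPKM, and Dmp1 stayed under 1 FPKM. In adipogenic libraries labelled knockout Ibsp rose by 1.26 (limma adjusted p 0.000810), Bglap, which reached 1 FPKM only there, by 0.63 (limma adjusted p 0.00724) and Runx2 by 0.28 (limma adjusted p 0.0141), a call lost in 3 of 6 fits without a library, while Alpl had -0.53 (adjusted p 0.169). Without control library 2 these were 1.25 (adjusted p 0.000897), 0.74 (adjusted p 0.00200), 0.34 (adjusted p 0.00316) and -0.95 (adjusted p 4.25e-05), and in osteogenic medium Runx2 had -0.31, lost in 6 of 6. Of 7 osteoclast markers Ctsk was at 34.9 to 45.4 FPKM, and Ocstamp, Dcstamp, Calcr and Oscar stayed under 1 FPKM. The 3 tested lay below 0 in adipogenic libraries labelled knockout, with Mmp9 at -0.79 (limma adjusted p 0.0398), lost in 5 of 6 and -1.17 (adjusted p 4.39e-05) without control library 2. In osteogenic libraries labelled knockout the same 3 lay above 0, at 0.22 to 0.55, none past the threshold of limma. The interaction of Mmp9 was -1.35 (limma adjusted p 0.0284), lost in 9 of 12. Of 5 endothelial markers none reached 1 FPKM in every library, and 4 were tested, Emcn only because libraries labelled knockout are high. The genotypes differed in osteogenic and adipogenic medium by 1.20 and 0.81 for Cdh5, 1.06 and 0.66 for Emcn, 0.80 and -0.14 for Pecam1 and -0.10 and 0.32 for Kdr. Of these, Kdr in either medium and Pecam1 in adipogenic medium missed the threshold, and the interaction of Pecam1 was -0.94 (limma adjusted p 0.0144), kept whichever library was left out. Of 6 erythroid markers none reached 1 FPKM in any library. Of 5 striated muscle markers 4 stayed under 1 FPKM, with Myh4 and Ckm at 0. Acta1 stood at 2.76, 3.10 and 3.72 FPKM in control and 6.56, 7.09 and 7.86 FPKM in libraries labelled knockout in osteogenic medium, and 1.15, 5.97 and 1.04 FPKM in control and 2.43, 3.11 and 3.70 FPKM in libraries labelled knockout in adipogenic medium. In osteogenic medium it was higher in 3 of 3 labelled knockout, by 0.97 (adjusted p 0.160), and in adipogenic medium it differed by 0.37 (adjusted p 0.489) with and 0.95 (adjusted p 0.000272) without control library 2.

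The members were abundant transcripts. Their mean over the 12 libraries had a median of 40.5 FPKM, against 6.47 FPKM for all genes tested, and 74 of 81 lay above the latter. Highest were 3 subunits of complex IV, Cox8a at 342 FPKM, Cox6a1 at 324 FPKM and Cox4i1 at 204 FPKM, followed by the β and α subunits of complex V, Atp5b at 192 FPKM and Atp5a1 at 182 FPKM. Lowest among those tested were Cox6b2 and Cox6a2, tissue isoforms of complex IV.

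**Figure D1:**
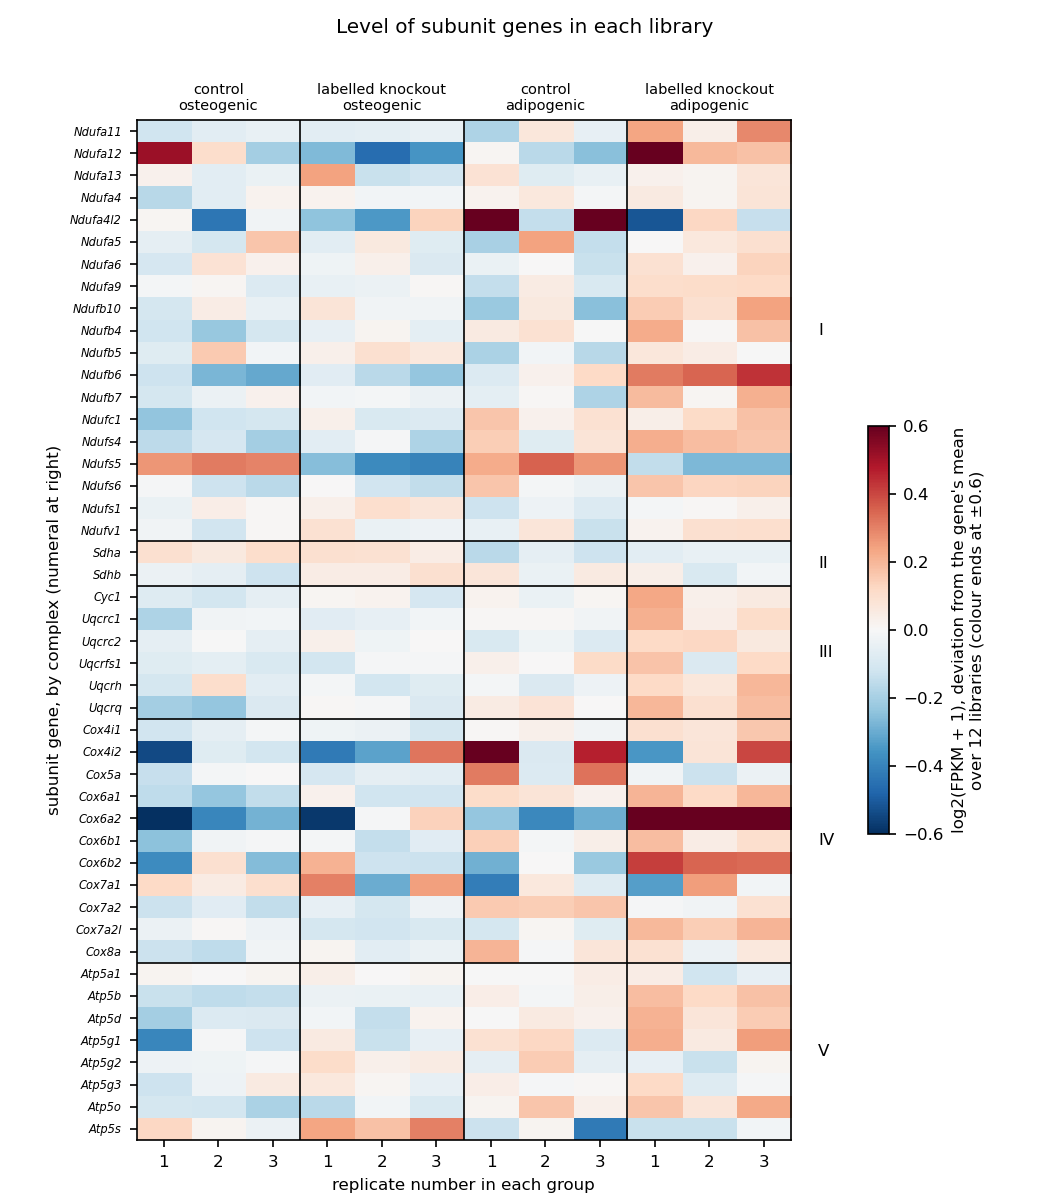
Heat map of members named in the text (rows, grouped by complex) in 12 libraries (columns, by group), coloured by the log2 difference of FPKM + 1 from the gene's mean over all libraries, with the colour ends at -0.6 and 0.6. Most cells are pale, and Ndufs5 in complex I is low in all 6 libraries labelled knockout.

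Of the 86 genes that match the rule, 5 were not tested. Just outside the threshold lay Ndufb2, an accessory subunit of complex I, at 0.629 to 1.21 FPKM, which reached 1 FPKM in 2 libraries. The testis and muscle isoforms Cox7b2 and Cox8b stayed at or under 0.343 FPKM, and Cox8c and an additional identifier of Atp5o were at 0 in every library. Just inside lay Cox6b2, which reached 1 FPKM in 3 libraries, Cox6a2 in 5, Cox4i2 in 8 and Ndufa4l2 in 11. Cox6b2 reached it only in the adipogenic libraries labelled knockout and Cox6a2 only in libraries labelled knockout, so that these genes were tested only because those groups are high.

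Of the genes that match the rule, tested or not, 29 have exons that overlap exons of another gene, and whether the strand was used in counting is not stated, so fragments of such members may belong to the neighbour. Among the members tested the overlap with a single neighbour is largest for Ndufb6. There 39.0% of the exonic length is shared with Smim27 on the opposite strand, whose highest value was 1.6 FPKM. The overlap is 30% for Ndufa13, shared with Tssk6 at up to 0.957 FPKM. Atp5o shares 17.5% with D430001F17Rik, 18.1% with Gm15976 and 12.3% with its additional identifier, and the joint length was not ranked.

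Promoters of members were searched for the letters bound by 4 factors known to act on respiratory genes. RefSeq windows of GRCm38.p6 from 250 bases before to 50 bases after the start matched 63 of 81 members, with 68 windows. The NRF1 letters GCGCATGC, on either strand, were in 10 of these 68 windows (14.7%), against 2.71% of all 32851 windows. The ETS letters CCGGAAGT were in 5 (7.35% against 3.89%), the YY1 letters AAGATGGC in 9 (13.2% against 2.75%) and the ERR letters TCAAGGTCA in 2 (2.94% against 0.423%). At least 1 of the 4 was in 25 windows, 36.8% against 9.25%. These matches are a description of letters, and binding was not measured. Printed with motif letters in capitals are windows of Ndufs5 (chr4:123718137-123718436, the member that fell in both media, with none of the 4 motifs, as in most of the windows), Cox6a1 (chr5:115348909-115349208, NRF1 letters on both strands whose matches overlap), Ndufa9 (chr6:126849095-126849394, YY1 letters) and Uqcrh (chr4:116075021-116075320, ETS letters on the other strand, so printed as ACTTCCGG). All 4 genes lie on the minus strand and are written 5′ to 3′ along the gene.
Ndufs5: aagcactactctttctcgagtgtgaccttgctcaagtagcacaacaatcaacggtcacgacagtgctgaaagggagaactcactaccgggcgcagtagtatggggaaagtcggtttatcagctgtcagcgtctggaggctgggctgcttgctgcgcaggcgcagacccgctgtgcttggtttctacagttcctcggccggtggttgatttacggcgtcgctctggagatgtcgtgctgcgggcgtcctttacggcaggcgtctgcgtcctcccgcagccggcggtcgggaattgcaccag
Cox6a1: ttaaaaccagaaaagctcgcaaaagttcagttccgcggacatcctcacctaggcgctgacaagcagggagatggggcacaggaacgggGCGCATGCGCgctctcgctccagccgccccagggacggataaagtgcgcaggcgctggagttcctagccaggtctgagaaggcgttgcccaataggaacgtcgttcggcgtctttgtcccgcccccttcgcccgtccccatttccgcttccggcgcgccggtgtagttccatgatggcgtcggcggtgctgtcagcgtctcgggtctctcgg
Ndufa9: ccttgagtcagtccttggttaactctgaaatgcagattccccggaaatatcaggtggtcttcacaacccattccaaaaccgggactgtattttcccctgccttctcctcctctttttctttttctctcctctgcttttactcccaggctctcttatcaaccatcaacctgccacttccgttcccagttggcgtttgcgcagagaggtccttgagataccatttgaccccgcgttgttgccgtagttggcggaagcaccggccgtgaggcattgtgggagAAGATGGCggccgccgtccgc
Uqcrh: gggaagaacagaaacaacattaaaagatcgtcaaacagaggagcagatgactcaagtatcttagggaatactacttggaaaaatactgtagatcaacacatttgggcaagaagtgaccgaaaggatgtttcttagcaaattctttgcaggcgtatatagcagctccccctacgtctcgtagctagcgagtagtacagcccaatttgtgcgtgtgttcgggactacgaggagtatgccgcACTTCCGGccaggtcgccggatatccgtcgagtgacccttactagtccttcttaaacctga

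The deposited FPKM can be scaled in several ways. With every library rescaled to the same sum of FPKM (TPM), the median difference of all genes moved by 0.17 between the genotypes in adipogenic medium, by 0.19 in the interaction, by -0.12 between the media in control libraries, by 0.06 between the media in libraries labelled knockout and by -0.01 between the genotypes in osteogenic medium. The median of the members minus that of all genes was much the same on either scale. It was 0.09 on the deposited scale and 0.11 as TPM between the genotypes in adipogenic medium, 0.02 and 0.03 in the interaction, 0.05 and 0.05 between the media in control libraries, 0.07 and 0.07 between the media in libraries labelled knockout, and 0.05 and 0.05 between the genotypes in osteogenic medium.

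In osteogenic medium, 0 members rose and 1 fell in libraries labelled knockout by limma, against 4.94% of all genes higher and 4.15% lower. At an unadjusted p under 0.05 there were 3 higher and 2 lower, against 1501 and 1492 of all 12871 genes. Limma voom on the recovered fragments, chosen after seeing the data, called 0 higher and 1 lower, against 5.10% and 4.28% of all genes. Fitted on only these 6 libraries, 2 were higher and 3 lower, against 13% and 13.5% of all genes. The groups did not overlap for 13 of 81 members (16%), against 44.3% of all genes. The median difference was 0.04 over the members and -0.01 over all genes, with 60 of 81 members above 0. By complex it was 0.03 for complex I, -0.03 for complex II, 0.04 for complex III, 0.05 for complex IV and 0.05 for complex V. For 76 of 81 members (93.8%) the 95% confidence interval of the difference lay within -0.5 and 0.5, against 70.9% of all genes.

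The member that fell was Ndufs5 (ENSMUSG00000028648, chromosome 4, 123712710 to 123718202), an accessory subunit of complex I on the side of the intermembrane space. It stood at 49.1, 50.8 and 50.1 FPKM in control and 33.9, 31.0 and 30.6 FPKM in libraries labelled knockout in osteogenic medium, and 47.6, 52.2 and 49.1 FPKM in control and 36.7, 33.6 and 33.5 FPKM in libraries labelled knockout in adipogenic medium. All 6 libraries labelled knockout lay below all 6 control libraries, and the comparisons in the 2 media share no library. The log2 difference was -0.64 (SE 0.0552, limma adjusted p 0.000147, lower in 3 of 3) in osteogenic medium, a ratio of means of 0.636. In adipogenic medium it was -0.51 (SE 0.0552, limma adjusted p 0.000126, lower in 3 of 3), a ratio of means of 0.697, and without control library 2 it was -0.47 (adjusted p 6.38e-05). The interaction was 0.13 (adjusted p 0.272). Ndufs5 was called lower under each of 14 alternatives tried in either medium, and no other gene's exons overlap its own.

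The other complex I genes did not pass the threshold in osteogenic medium. Ndufb6, Ndufb7 and Ndufb10 had differences of 0.08, 0.02 and 0.04. Among the core subunits, Ndufs1, the largest, ranged over 8.66 to 10.3 FPKM across all libraries and Ndufv1, which binds NADH, over 22.5 to 26.6 FPKM. Their differences in osteogenic medium were 0.07 (95% interval -0.02 to 0.16) and 0.05 (95% interval -0.09 to 0.19).

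**Figure D2:**
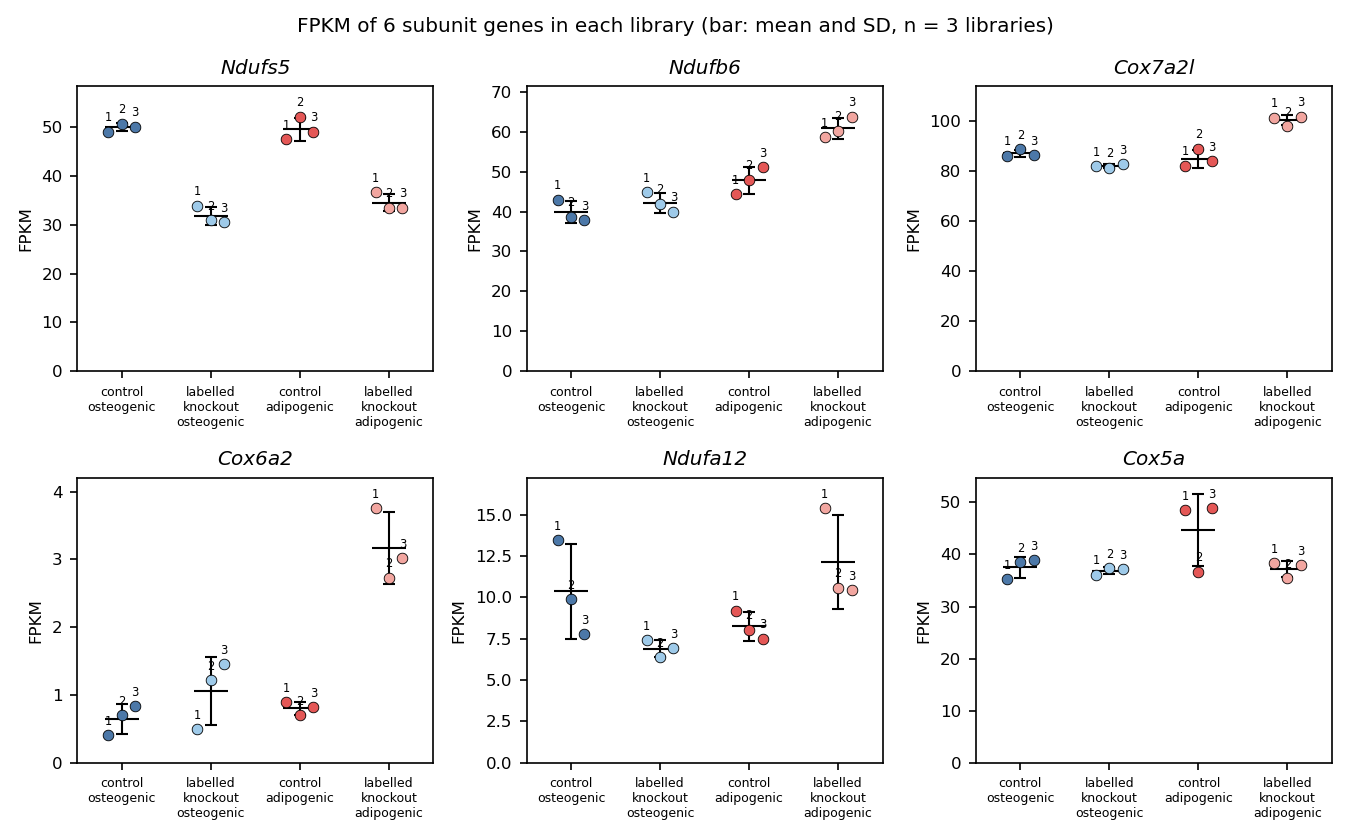
FPKM of 6 members in each library (points numbered by replicate) in the 4 groups, with bars for the mean and SD. Ndufs5 is at 30.6 to 36.7 in libraries labelled knockout and 47.6 to 52.2 in control libraries, and control library 2 in adipogenic medium is apart for Cox5a at 36.7.

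In adipogenic medium, 11 of 81 members rose (13.6%) and 2 fell (2.47%) in libraries labelled knockout, against 16.7% of all genes higher and 16.5% lower. The 11 include Cox6a2 and Cox6b2, which only the level in libraries labelled knockout brought into the test. At an unadjusted p under 0.05 there were 18 higher and 4 lower, against 2782 and 2938 of all 12871 genes. Limma voom called 11 and 2, against 16.8% and 15.8% of all genes. Fitted on only these 6 libraries, 4 were higher and 1 lower, against 7.87% and 5.11% of all genes. The groups did not overlap for 26 of 81 members (32.1%), against 38.6% of all genes. Rescaled as TPM, 25 members were called higher and 1 lower. Among all genes TPM gave 3235 higher and 895 lower, where the deposited scale gave 2153 and 2123. The count of members that rose was 18 without control library 2, 7 without control 1 or knockout 1, 5 without control 3 or knockout 3, and 9 without knockout 2. The count that fell was 4 without control library 2 and 1 without control 1 or 3 or knockout 1 or 2. Without control library 2, 24.3% of all genes were called higher and 26.8% lower. Leaving out another of these libraries gave 11.5% to 15.3% of all genes higher and 10.2% to 14.6% lower.

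The median difference was 0.08 over the members and -0.01 over all genes, with 58 of 81 members above 0, and without control library 2 it was 0.09 over the members. By complex the median was 0.09 for complex I, 0.06 for complex II, 0.11 for complex III, 0.06 for complex IV and 0.05 for complex V, and in complex III 9 of 9 members lay above 0. For 74 of 81 members (91.4%) the 95% interval lay within -0.5 and 0.5, against 60.7% of all genes.

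**Figure D3:**
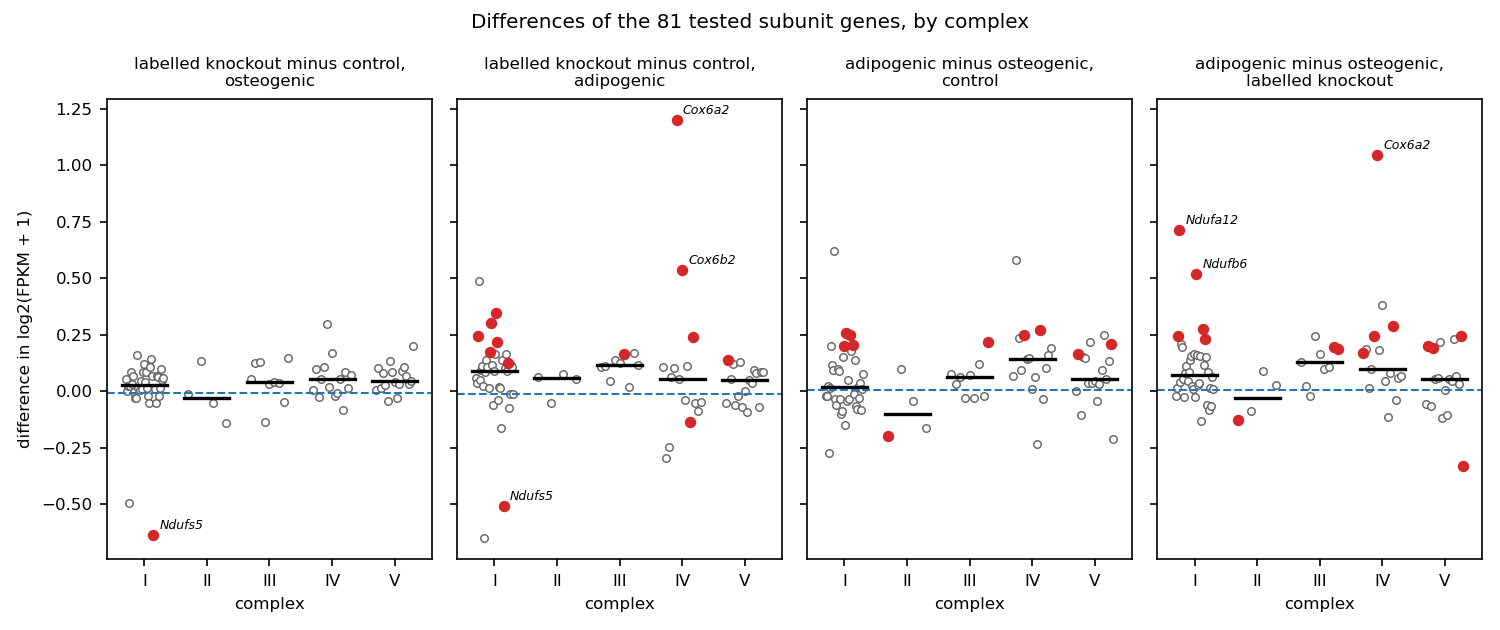
Log2 difference of FPKM + 1 of each member tested, by complex, between the genotypes in each medium and between the media in each genotype. The interaction is not drawn. Red points had a limma adjusted p under 0.05 and open points did not, black bars are the complex medians and the dashed blue line is the median of all genes; the complex medians lie between -0.10 and 0.14.

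In complex I, 6 members rose and 1, Ndufs5, fell. Ndufb6, an accessory subunit of the membrane arm, stood at 44.3, 47.9 and 51.1 FPKM in the control libraries and 58.7, 60.2 and 63.8 FPKM in the libraries labelled knockout. The groups did not overlap, and the log2 difference was 0.34 (SE 0.0697, limma adjusted p 0.00463, higher in 3 of 3), and it was 0.35 without control library 2. Ndufb6 was called under each of 14 alternatives, and its exons are those most shared with a neighbour. Ndufb10, on the intermembrane side of the same arm, stood at 36.0, 43.9 and 35.2 FPKM in the control libraries and 46.9, 45.1 and 49.9 FPKM in the libraries labelled knockout. Here control library 2 was the highest of its group, and the difference was 0.30 (SE 0.0814, limma adjusted p 0.0179, higher in 3 of 3) with it and 0.40 (adjusted p 0.000257) without it. The call for Ndufb10 was lost without control 1 or 3 or knockout 3 (log2 0.25 to 0.26, adjusted p 0.0657 to 0.0707) and with the compared libraries alone. Ndufb7, which lies beside it, stood at 10.6, 11.1 and 9.58 FPKM in the control libraries and 12.7, 11.1 and 12.9 FPKM in the libraries labelled knockout. Its groups lay close together without overlap, with a difference of 0.22 (SE 0.0663, limma adjusted p 0.0312, higher in 3 of 3), 0.26 without control library 2, and the call was lost without control 1 or 3 or knockout 1 or 3 (log2 0.16 to 0.23, adjusted p 0.0629 to 0.114) and with no filter, the compared libraries alone and a replicate block.

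Ndufa9 and Ndufa11, which rose as well, are named after their values were seen. Ndufa9, whose promoter window holds the YY1 letters, stood at 20.4, 23.5 and 21.2 FPKM in the control libraries and 24.5, 24.6 and 24.7 FPKM in the libraries labelled knockout. Its control library 2 was highest of the controls, and the difference was 0.17 (limma adjusted p 0.0271, higher in 3 of 3) and 0.23 without that library, lost without control 1 or 3 or knockout 1, 2 or 3 (log2 0.13 to 0.18, adjusted p 0.0534 to 0.0962) and with the compared libraries alone. Ndufa11, a membrane arm subunit, stood at 24.0, 28.8 and 26.5 FPKM in the control libraries and 32.5, 28.2 and 33.7 FPKM in the libraries labelled knockout. It is the only member past the threshold whose groups overlapped, and its difference was 0.24 (limma adjusted p 0.0309), 0.30 without control library 2, lost without control 1 or 3 or knockout 1 or 3 (log2 0.18 to 0.25, adjusted p 0.0703 to 0.116) and with no filter and the compared libraries alone. The core subunits Ndufs1 and Ndufv1 had differences of 0.09 (adjusted p 0.134) and 0.11 (adjusted p 0.207), and 0.11 (adjusted p 0.0394) and 0.16 (adjusted p 0.0370) without control library 2.

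Complex II, which also belongs to the citric acid cycle, had no member past the threshold of limma in adipogenic medium. Its catalytic subunit Sdha stood at 54.9, 59.2 and 56.3 FPKM in the control libraries and 58.8, 59.6 and 59.5 FPKM in the libraries labelled knockout, and these groups overlapped (log2 0.06, limma adjusted p 0.244). Without control library 2 the difference was 0.09 (adjusted p 0.0358). The iron-sulfur subunit Sdhb ranged over 36.3 to 42.5 FPKM in all libraries, with a difference of -0.05 (95% interval -0.16 to 0.05).

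In complex III, Uqcrc2, a core protein of the matrix side, stood at 25.6, 26.8 and 25.8 FPKM in the control libraries and 29.7, 29.8 and 28.5 FPKM in the libraries labelled knockout. Each library labelled knockout was above each control library, and the difference was 0.17 (SE 0.0380, limma adjusted p 0.00830), with 0.19 without control library 2. Its call was kept whichever library was left out and lost with the compared libraries alone. Its partner Uqcrc1 stood at 32.7 to 43.5 FPKM over all libraries, the iron-sulfur protein Uqcrfs1 at 45.3 to 55.2 FPKM and cytochrome c1, Cyc1, at 38.6 to 49.1 FPKM. Their differences were 0.12 (adjusted p 0.116), 0.02 (adjusted p 0.848) and 0.11 (adjusted p 0.180).

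In complex IV, 3 members rose and 1 fell. Cox7a2l, a relative of Cox7a2, stood at 82.0, 88.8 and 83.7 FPKM in the control libraries and 101, 97.9 and 102 FPKM in the libraries labelled knockout. The groups were well apart, with a difference of 0.24 (SE 0.0395, limma adjusted p 0.00151, higher in 3 of 3), and 0.27 (adjusted p 7.10e-05) without control library 2. Cox7a2, the widely expressed isoform, stood at 70.4, 69.8 and 70.9 FPKM in the control libraries and 62.7, 62.1 and 67.2 FPKM in the libraries labelled knockout. It was lower in every library labelled knockout, with a difference of -0.14 (SE 0.0425, limma adjusted p 0.0334) on the deposited scale and 0.05 as TPM, where the direction flips. Without control library 2 it was -0.14, and the call for Cox7a2 was lost without control 1 or 3 or knockout 1 or 2 (log2 -0.14 to -0.11, adjusted p 0.0774 to 0.112) and with TPM, the compared libraries alone and a replicate block.

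Cox6a2, the isoform of heart and skeletal muscle, stood at 0.895, 0.703 and 0.817 FPKM in the control libraries and 3.76, 2.73 and 3.02 FPKM in the libraries labelled knockout. These are low values, but the libraries labelled knockout were all above the controls, by a log2 difference of 1.20 (SE 0.180, limma adjusted p 0.000855) and 1.16 without control library 2. As stated, the level filter let this gene in only through libraries labelled knockout. With no filter, where the level plays no part, the call was kept, as under the other 13 alternatives, and 10.3% of its exonic length is shared with Itgad, which stayed at or under 0.296 FPKM. Cox6b2, known from testis, stood at 0.384, 0.690 and 0.446 FPKM in the control libraries and 1.25, 1.15 and 1.14 FPKM in the libraries labelled knockout. It was above the controls in 3 of 3 libraries labelled knockout (log2 0.54, limma adjusted p 0.0179), 0.62 without control library 2. This gene too was let in only by the group where it is high. The call was kept with no filter and lost without control 1 or 3 (log2 0.48 to 0.51, adjusted p 0.0576 to 0.0646).

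Cox5a, a subunit of the matrix face, depends on control library 2. It stood at 48.5, 36.7 and 48.9 FPKM in the control libraries and 38.3, 35.5 and 38 FPKM in the libraries labelled knockout, so that control libraries 1 and 3 were above every library labelled knockout and control library 2 was among them. The difference was -0.25 (adjusted p 0.0740) with that library and -0.38 (limma adjusted p 0.000166) without it. Without it 13 of the 13 members called with all libraries were called again, and 9 more were. Those, named after their values were seen, are Ndufa4l2 at -0.96, Cox5a, Ndufa5 at 0.22, Ndufb5 at 0.22, Ndufa6 at 0.17, Ndufv1, Cox4i1 at 0.12, Ndufs1 and Sdha. All genes were then called higher in 24.3% and lower in 26.8%.

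In complex V, Atp5b, the catalytic β subunit, stood at 197, 189.8 and 196 FPKM in the control libraries and 218, 208 and 216 FPKM in the libraries labelled knockout. The groups did not overlap, with a difference of 0.14 (SE 0.0355, limma adjusted p 0.0145, higher in 3 of 3), 0.12 without control library 2, and the call was lost without knockout 3 (log2 0.13, adjusted p 0.0571) and with the compared libraries alone. The α subunit Atp5a1, which forms the catalytic head with it, ranged over 168 to 188 FPKM and had a difference of -0.05 (95% interval -0.15 to 0.05). Of the genes for the rotating c ring, which encode the same mature protein, Atp5g3 gave 50.6% to 55.2% of their summed FPKM, Atp5g2 34.6% to 39.9% and Atp5g1 7.34% to 10.8%. Their differences in adipogenic medium were 0.13 for Atp5g1, -0.07 for Atp5g2 and -0.00 for Atp5g3, none past the threshold of limma. Atpif1, the inhibitor of the enzyme and not a member, ranged over 30 to 46.3 FPKM, with a difference of -0.26 (adjusted p 0.107).

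The interaction asks whether the difference between genotypes is itself different in the 2 media. By limma it was above 0 for 3 members and below 0 for 0, against 10.9% of all genes above and 9.58% below. At an unadjusted p under 0.05 there were 9 above and 2 below, against 2301 and 2190 of all 12871 genes. Limma voom called 2 and 0, against 10.6% and 9.58% of all genes. Rescaled as TPM the counts were 6 and 0 (12.9% and 4.35% of all genes), and with median ratio scaling 3 and 1 (10.6% and 9.76%). Without control library 2 in adipogenic medium there were 7 above and 4 below, with 3 of the 3 kept, against 19.7% and 22.5% of all genes. The count above 0 was 1 without adipogenic control 3 (8.30% of all genes), and without adipogenic knockout 3 there was 1 below (6.64% of all genes). The median interaction was 0.02 over the members and -0.00 over all genes, and by complex 0.05 for complex I, 0.10 for complex II, 0.05 for complex III, -0.01 for complex IV and -0.02 for complex V.

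Ndufa12, an accessory subunit of complex I added late in assembly, stood at 13.5, 9.89 and 7.79 FPKM in control and 7.42, 6.38 and 6.93 FPKM in libraries labelled knockout in osteogenic medium, and 9.19, 8.04 and 7.51 FPKM in control and 15.4, 10.6 and 10.4 FPKM in libraries labelled knockout in adipogenic medium. In osteogenic medium the libraries labelled knockout were below the controls and in adipogenic medium above them, with wide spread in the first control group. Neither difference passed alone, at -0.50 (adjusted p 0.13) and 0.49 (adjusted p 0.0630). The interaction was 0.99 (SE 0.258, limma adjusted p 0.0239) and 0.97 without adipogenic control 2. It was lost without osteogenic knockout 2 or 3 or adipogenic control 3 (log2 0.93 to 0.99, adjusted p 0.0512 to 0.0583) and with no filter.

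Cox7a2l stood at 85.9, 88.7 and 86.2 FPKM in control and 81.8, 81.3 and 82.6 FPKM in libraries labelled knockout in osteogenic medium, so that it was lower there and higher in adipogenic medium. The difference in osteogenic medium was -0.09 (adjusted p 0.231), and the interaction was 0.32 (SE 0.0559, limma adjusted p 0.00330). The call was kept under each of 19 alternatives. Cox6a2 stood at 0.405, 0.70 and 0.832 FPKM in control and 0.491, 1.22 and 1.45 FPKM in libraries labelled knockout in osteogenic medium, where these overlapped. Its interaction was 0.90 (SE 0.255, limma adjusted p 0.0322). The call for Cox6a2 was lost under 9 of 19 alternatives, namely limma voom, a pseudocount of 0.1, no filter (log2 0.90 to 1.32, adjusted p 0.0739 to 0.132) and the fits without osteogenic control 2 or 3 or adipogenic control 1 or 3 or adipogenic knockout 1 or 3 (log2 0.81 to 0.94, adjusted p 0.0508 to 0.0742). Among the members that passed only in adipogenic medium, the interaction was 0.26 (adjusted p 0.0886) for Ndufb6, 0.26 (adjusted p 0.142) for Ndufb10, 0.20 (adjusted p 0.160) for Ndufb7, 0.13 (adjusted p 0.124) for Uqcrc2, -0.19 (adjusted p 0.0510) for Cox7a2 and 0.04 (adjusted p 0.647) for Atp5b. For Ndufa9 and Ndufa11 it was 0.17 (adjusted p 0.127) and 0.22 (adjusted p 0.163). Without adipogenic control 2 the interactions called were 0.97 for Ndufa12, 0.86 for Cox6a2, 0.36 for Cox7a2l, 0.36 for Ndufb10, 0.28 for Ndufa11, 0.23 for Ndufa9, 0.15 for Uqcrc2, -0.19 for Cox7a2, -0.22 for Sdhb, -0.35 for Cox5a and -0.96 for Ndufa4l2.

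Between the media, in control libraries, 9 of 81 members were higher in adipogenic medium (11.1%) and 1 lower (1.23%), against 10.5% of all genes higher and 12.3% lower. At an unadjusted p under 0.05 there were 15 higher and 2 lower, against 2507 and 2425 of all 12871 genes. Limma voom called 7 and 1, against 9.09% and 12.1% of all genes. Rescaled as TPM, 0 were higher and 1 lower by limma (5.06% and 11.3% of all genes), with 0 higher and 6 lower at an unadjusted p under 0.05. The groups did not overlap for 17 members (21.0%), against 34.4% of all genes. The median difference was 0.05 over the members on the deposited scale and -0.07 as TPM, where the direction flips, and 0.01 over all genes. By complex it was 0.02 for complex I, -0.10 for complex II, 0.06 for complex III, 0.14 for complex IV and 0.05 for complex V. For 76 of 81 members (93.8%) the 95% interval lay within -0.5 and 0.5, against 65.2% of all genes. Without adipogenic control 2, 14 members were higher and 6 lower, with 10 of the 10 kept, against 24.5% and 23.3% of all genes. Without osteogenic control 1 or 2 or adipogenic control 3 there were 4 higher, and without osteogenic control 3 or adipogenic control 1 there were 5. In these fits 4.40% to 5.21% of all genes were called higher.

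In libraries labelled knockout, 14 of 81 members were higher in adipogenic medium (17.3%) and 2 lower (2.47%), against 13.9% of all genes higher and 14% lower. The 14 include Cox6a2, which only these libraries brought into the test. At an unadjusted p under 0.05 there were 24 higher and 2 lower, against 2547 and 2548 of all 12871 genes. Limma voom called 14 and 2 (14.2% and 14.4% of all genes), and TPM gave 7 and 0 (12.9% and 6.88% of all genes). A fit of only these 6 libraries gave 20 and 2 (18.2% and 19.1% of all genes). The groups did not overlap for 35 members (43.2%), against 52.5% of all genes. The median was 0.07 over the members and 0.00 over all genes, and by complex 0.07 for complex I, -0.03 for complex II, 0.13 for complex III, 0.10 for complex IV and 0.05 for complex V. For 72 of 81 members (88.9%) the 95% interval lay within -0.5 and 0.5, against 62.4% of all genes. The count of higher members was 9 without osteogenic knockout 2 or 3, 8 without adipogenic knockout 1, 7 without adipogenic knockout 3, 12 without osteogenic knockout 1 and 17 without adipogenic knockout 2. The count of lower members was 1 without osteogenic knockout 3 and 0 without any other of these 6 libraries.

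In complex I, Ndufb6 stood at 43.0, 38.7 and 37.8 FPKM in control and 44.9, 41.9 and 39.9 FPKM in libraries labelled knockout in osteogenic medium. Every adipogenic library was above every osteogenic library of its genotype. The difference was 0.26 (limma adjusted p 0.0272) in control libraries, lost without osteogenic control 2 or 3 or adipogenic control 3 (log2 0.21 to 0.24, adjusted p 0.0908 to 0.102) and with no filter, TPM and the compared libraries alone, and 0.52 (limma adjusted p 0.000525) in libraries labelled knockout, kept under each of 14 alternatives. Ndufs4, an accessory subunit of the matrix arm, stood at 8.88, 9.25 and 8.55 FPKM in control and 9.52, 9.96 and 8.68 FPKM in libraries labelled knockout in osteogenic medium, and 11.2, 9.46 and 10.6 FPKM in control and 11.8, 11.5 and 11.4 FPKM in libraries labelled knockout in adipogenic medium. It was higher in adipogenic medium in 3 of 3 libraries of each genotype, by 0.21 (limma adjusted p 0.0463) and 0.27 (limma adjusted p 0.0108). For the controls the call was lost without osteogenic control 1, 2 or 3 or adipogenic control 1 or 3 (log2 0.16 to 0.23, adjusted p 0.0769 to 0.162) and with no filter, TPM, no trend, the compared libraries alone, a replicate block and limma voom. Ndufa12 rose between the media in libraries labelled knockout by 0.71 (limma adjusted p 0.0157), lost without osteogenic knockout 2 or adipogenic knockout 1 (log2 0.54 to 0.66, adjusted p 0.0528 to 0.0577). Ndufc1, a small membrane arm subunit, stood at 16.2, 17.6 and 17.8 FPKM in osteogenic and 21.7, 19.6 and 20.6 FPKM in adipogenic control libraries. It was higher in 3 of 3, by 0.25 (limma adjusted p 0.0170), lost without osteogenic control 1 or adipogenic control 1 or 3 (log2 0.21 to 0.25, adjusted p 0.0526 to 0.0665) and with TPM and the compared libraries alone.

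Complex II held the member that fell between the media in control libraries. Sdha stood at 65.8, 64.1 and 66.2 FPKM in control and 65.8, 65.5 and 63.3 FPKM in libraries labelled knockout in osteogenic medium, above all adipogenic libraries of either genotype. The difference was -0.20 (limma adjusted p 0.00732) in control libraries, kept whichever library was left out, -0.23 without adipogenic control 2 and lost with the compared libraries alone. In libraries labelled knockout it was -0.13 (limma adjusted p 0.0324), lost without osteogenic knockout 1 or 2 or adipogenic knockout 1, 2 or 3 (log2 -0.13 to -0.12, adjusted p 0.0702 to 0.101) and with TPM and a replicate block.

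In complex III, Uqcrq, a small subunit beside cytochrome b, stood at 46.0, 45.1 and 49.9 FPKM in control and 53.3, 52.8 and 50.0 FPKM in libraries labelled knockout in osteogenic medium, and 55.0, 56.2 and 53.2 FPKM in control and 61.0, 56.8 and 60.4 FPKM in libraries labelled knockout in adipogenic medium. Adipogenic libraries were above osteogenic libraries of the same genotype in 3 of 3, by 0.22 (limma adjusted p 0.0149) and 0.19 (limma adjusted p 0.0206). The calls were lost without osteogenic control 1 or 2 (log2 0.19 to 0.20, adjusted p 0.0568 to 0.0608) and with TPM and the compared libraries alone for the controls and without osteogenic knockout 3 or adipogenic knockout 1 or 3 (log2 0.16 to 0.18, adjusted p 0.0669 to 0.0816) and with TPM for libraries labelled knockout. Uqcrh, the hinge protein whose promoter window holds the ETS letters, stood at 56.5, 52.7 and 54.1 FPKM in osteogenic and 61.9, 59.7 and 65.5 FPKM in adipogenic libraries labelled knockout. Its 3 adipogenic values were above the 3 osteogenic ones, by 0.19 (limma adjusted p 0.0364), lost without osteogenic knockout 1, 2 or 3 or adipogenic knockout 1 or 3 (log2 0.16 to 0.22, adjusted p 0.0502 to 0.131) and with no filter, TPM and a replicate block.

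In complex IV, Cox6a1, the widely expressed partner of Cox6a2, stood at 289.7, 275 and 291 FPKM in control and 328, 297 and 298 FPKM in libraries labelled knockout in osteogenic medium, and 348, 340.1 and 329 FPKM in control and 372, 350.5 and 370.3 FPKM in libraries labelled knockout in adipogenic medium. Every adipogenic library was above every osteogenic library of its genotype, by 0.25 (limma adjusted p 0.0102) in control libraries and 0.24 (limma adjusted p 0.00674) in libraries labelled knockout, and leaving out a library kept these calls, while that of the controls was lost with TPM and the compared libraries alone. Cox7a2 stood at 57.6, 60.1 and 56.8 FPKM in osteogenic control libraries, below all adipogenic ones, and rose between the media by 0.27 (limma adjusted p 0.00275), a call that TPM alone among 14 alternatives took away (adjusted p 0.248). Cox7a2l rose by 0.29 (limma adjusted p 0.000594) and Cox6a2 by 1.04 (limma adjusted p 0.00211) in libraries labelled knockout, each in 3 of 3 and under each of 14 alternatives, no filter among them. With the filter Cox6a2 was tested only because libraries labelled knockout are high. Cox4i1, the common form of a regulatory subunit, stood at 200, 199 and 189 FPKM in osteogenic and 218, 215 and 228 FPKM in adipogenic libraries labelled knockout. Here too the adipogenic values were all higher, by 0.17 (limma adjusted p 0.0172), lost without osteogenic knockout 3 or adipogenic knockout 3 (log2 0.14, adjusted p 0.0722 to 0.0739) and with TPM. Between the control groups Cox5a differed by 0.23 (adjusted p 0.103) with adipogenic control 2 and by 0.37 (adjusted p 0.000223) without it.

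In complex V, Atp5b stood at 174, 172 and 173 FPKM in control and 187, 186 and 185 FPKM in libraries labelled knockout in osteogenic medium. All adipogenic libraries were above all osteogenic libraries, by 0.16 (limma adjusted p 0.0114) and 0.20 (limma adjusted p 0.00249). No library left out took these calls away, but that of the controls was lost with TPM and the compared libraries alone (log2 0.03, adjusted p 0.781 and log2 0.16, adjusted p 0.108). Atp5o, the stalk subunit that holds the head in place, stood at 20.6, 20.5 and 19.3 FPKM in control and 19.8, 22.0 and 20.8 FPKM in libraries labelled knockout in osteogenic medium, and 22.5, 25.1 and 22.7 FPKM in control and 25.0, 23.5 and 26.2 FPKM in libraries labelled knockout in adipogenic medium. It was higher in adipogenic medium in 3 of 3 libraries of each genotype, by 0.21 (limma adjusted p 0.0346), lost without osteogenic control 1, 2 or 3 or adipogenic control 1 or 3 (log2 0.18 to 0.23, adjusted p 0.0575 to 0.11) and with no filter, TPM and the compared libraries alone, and 0.24 (limma adjusted p 0.0132), lost without osteogenic knockout 1 or adipogenic knockout 3 (log2 0.21, adjusted p 0.0535 to 0.0561) and with TPM. Atp5d, of the central stalk, stood at 77.4, 70.7 and 79.4 FPKM in osteogenic and 90.7, 82.4 and 87.2 FPKM in adipogenic libraries labelled knockout. The difference, higher in 3 of 3, was 0.19 (limma adjusted p 0.0302), lost without osteogenic knockout 1 or 2 or adipogenic knockout 1 or 3 (log2 0.14 to 0.21, adjusted p 0.0562 to 0.116) and with no filter and TPM. Atp5s, a coupling factor present at low level, stood at 3.36, 3.17 and 3.55 FPKM in osteogenic and 2.38, 2.37 and 2.66 FPKM in adipogenic libraries labelled knockout. It was lower in 3 of 3, with -0.33 (limma adjusted p 0.0352), lost without osteogenic knockout 1, 2 or 3 or adipogenic knockout 1, 2 or 3 (log2 -0.37 to -0.30, adjusted p 0.0550 to 0.109) and with no filter, TPM and a replicate block.

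The remaining members past the threshold between the media, named after their values were seen, are Ndufb4 in control libraries and Ndufa11 and Ndufs6 in libraries labelled knockout. Their differences were 0.20 (limma adjusted p 0.0427), lost without osteogenic control 1, 2 or 3 or adipogenic control 1 or 3 (log2 0.16 to 0.22, adjusted p 0.0709 to 0.144) and with no filter, TPM, no trend, the compared libraries alone, a replicate block and limma voom, then 0.24 (limma adjusted p 0.0341), lost without osteogenic knockout 1, 2 or 3 or adipogenic knockout 1 or 3 (log2 0.19 to 0.25, adjusted p 0.0800 to 0.125) and with no filter, TPM and a replicate block, and 0.23 (limma adjusted p 0.0242), lost without osteogenic knockout 2 or 3 or adipogenic knockout 1, 2 or 3 (log2 0.20 to 0.24, adjusted p 0.0540 to 0.0887) and with TPM. Without adipogenic control 2 the members that rose between the media in control libraries were called again, at 0.18 for Ndufb4, 0.25 for Ndufb6, 0.27 for Ndufs4, 0.28 for Ndufc1, 0.20 for Uqcrq, 0.25 for Cox6a1, 0.28 for Cox7a2, 0.18 for Atp5b and 0.16 for Atp5o.

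Tissue isoforms made up small shares of their sets on the FPKM scale, which is per length. Cox6a2 gave 1.00, 0.773 and 0.808% of the sum of Cox6a1 and Cox6a2 in adipogenic libraries labelled knockout, and 0.140, 0.254 and 0.285%, 0.149, 0.410 and 0.485% and 0.256, 0.206 and 0.248% in the osteogenic control, the osteogenic knockout-labelled and the adipogenic control groups. Every library of the first group was above every library of the other groups. Cox6b2 gave 0.220% to 0.701% beside Cox6b1, which ranged over 133 to 179.6 FPKM, and Cox4i2, known to respond to low oxygen, gave 0.371% to 1.38% beside Cox4i1. Cox8b gave at most 0.0957% beside Cox8a at 306 to 393 FPKM. In the Cox7a set the muscle isoform Cox7a1 gave 0.815% to 1.86% and Cox7a2l 53.4% to 61.2%, with 53.4, 55.2 and 53.5% in adipogenic control libraries and 61.2, 60.2 and 59.5% in those labelled knockout, which did not overlap.

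Ndufa4l2, a relative of Ndufa4 known to be induced by low oxygen, stood at 1.76, 1.03 and 1.71 FPKM in control and 1.32, 1.16 and 2.01 FPKM in libraries labelled knockout in osteogenic medium, and 4.22, 1.48 and 3.27 FPKM in control and 0.924, 1.99 and 1.49 FPKM in libraries labelled knockout in adipogenic medium. Adipogenic control libraries 1 and 3 were highest. Its share beside Ndufa4, which is grouped with complex I by its symbol and ranged over 56.0 to 66.5 FPKM, was 6.20, 2.20 and 4.97% in the adipogenic controls and 1.39% to 3.12% in the other groups. The difference between genotypes in adipogenic medium was -0.65 (adjusted p 0.0889), and -0.96 (adjusted p 0.00429) without control library 2. Cox4i2 stood at 0.70, 1.36 and 1.29 FPKM in control and 0.848, 0.982 and 2.09 FPKM in libraries labelled knockout in osteogenic medium, and 2.86, 1.33 and 2.43 FPKM in control and 0.946, 1.62 and 2.27 FPKM in libraries labelled knockout in adipogenic medium. Its adipogenic control libraries 1 and 3 were also highest, and the difference between the media in control libraries was 0.58 (adjusted p 0.136) with adipogenic control 2 and 0.80 (adjusted p 0.0318) without it.

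Summed over the 81 members tested, the level was 3959, 4142 and 4253 FPKM in control and 4368, 4153 and 4147 FPKM in libraries labelled knockout in osteogenic medium. With adipogenic medium the sum was 4482, 4363 and 4289 FPKM in control and 4614, 4373 and 4614 FPKM in libraries labelled knockout. The group means were 4118 ± 148 and 4223 ± 126 FPKM in osteogenic medium and 4378 ± 97.0 and 4533 ± 139 FPKM in adipogenic medium (SD, n = 3 each). The genotypes overlapped in either medium. Complex IV, with the most abundant subunits, gave 1339.7 ± 54.8, 1383 ± 47.0, 1499 ± 56.7 and 1532 ± 50.9 FPKM (SD, n = 3 each) in the same order. Complex I gave 1144 ± 47.4, 1159 ± 50.3, 1188 ± 34.7 and 1247 ± 29.4 FPKM, complex V 938 ± 29.0, 969.6 ± 15.1, 989.9 ± 8.65 and 1011 ± 36.4 FPKM, and complex III 489 ± 21.2, 509.8 ± 16.2, 509.8 ± 22.1 and 548 ± 17 FPKM. Complex II was the only complex whose sum was lower in adipogenic medium in both genotypes, at 206 ± 2.52, 201 ± 4.21, 191 ± 7.82 and 196 ± 8.54 FPKM.

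**Figure D4:**
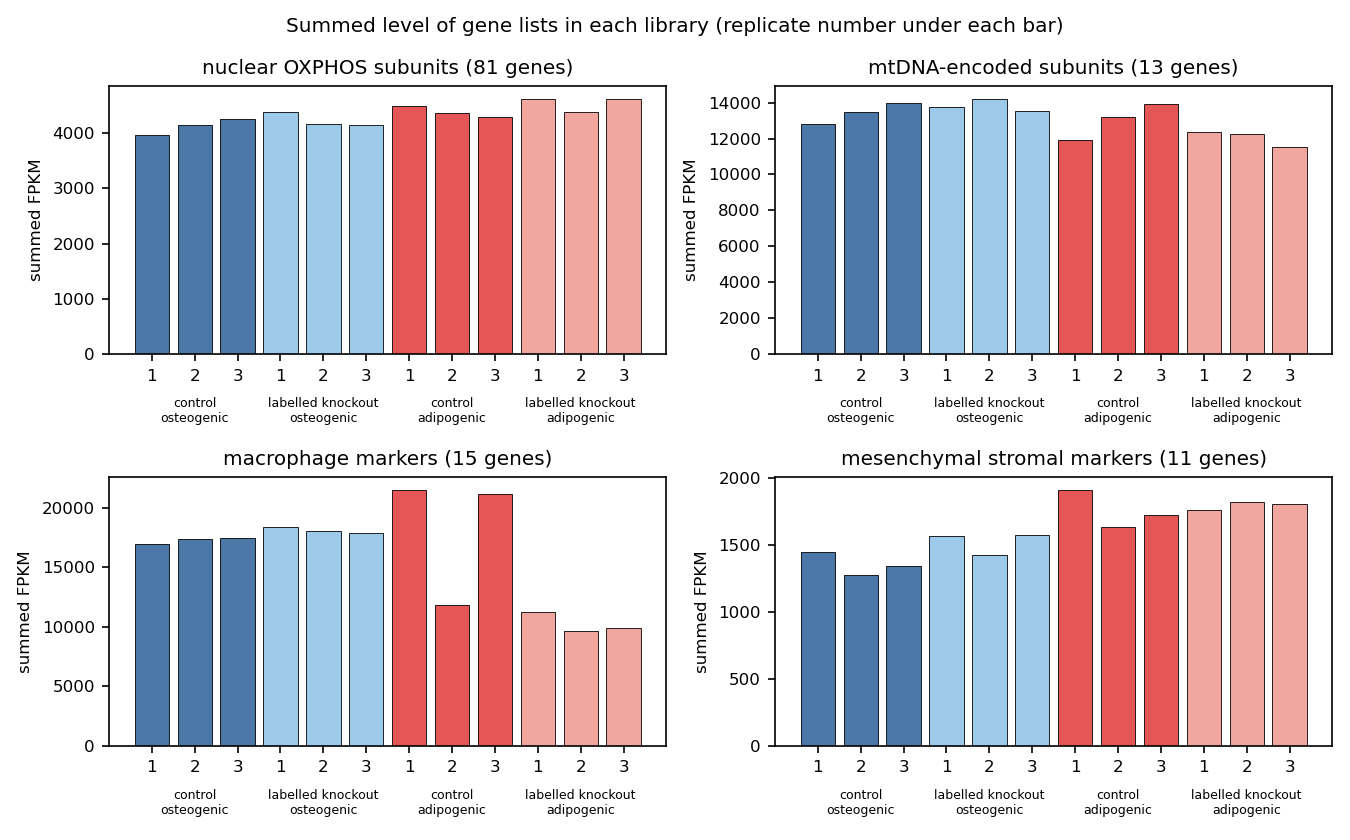
Summed FPKM in each library (bars, by group and replicate) of all nuclear-encoded members tested and of the subunits encoded in mitochondrial DNA. Further panels show the sums of the macrophage markers and of the mesenchymal markers. The macrophage sum of adipogenic control 2, 11801, is close to that of the libraries labelled knockout, and the sums of the members differ little between libraries.

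The subunits encoded in mitochondrial DNA were 13 of 13 at 1 FPKM or more in every library. Their sum was 12789, 13482 and 13948 FPKM in control and 13737, 14209.8 and 13527 FPKM in libraries labelled knockout in osteogenic medium, and 11926, 13219 and 13941 and 12355, 12239 and 11519 FPKM in adipogenic medium. In adipogenic medium the genotypes overlapped, with libraries labelled knockout below control libraries 2 and 3. Their median difference was 0.05 between the genotypes in osteogenic and -0.07 in adipogenic medium, -0.10 in the interaction, -0.08 between the media in control libraries and -0.18 in libraries labelled knockout. Limma called 1 lower between the genotypes in adipogenic medium, mt-Co1 of complex IV at -0.21 (limma adjusted p 0.0478), lost without control 1 or 3 or knockout 1, 2 or 3 (log2 -0.24 to -0.13, adjusted p 0.0546 to 0.143) and -0.26 (adjusted p 0.00784) without control library 2. It called 3 lower between the media in libraries labelled knockout, mt-Nd2 at -0.33 (limma adjusted p 0.0296), mt-Cytb at -0.27 (limma adjusted p 0.0172) and mt-Nd5 at -0.26 (limma adjusted p 0.0163). These calls were lost without osteogenic knockout 1, 2 or 3 or adipogenic knockout 2 or 3 (log2 -0.36 to -0.28, adjusted p 0.0555 to 0.107), without osteogenic knockout 1 or 2 or adipogenic knockout 2 or 3 (log2 -0.27 to -0.25, adjusted p 0.0507 to 0.0646) and without osteogenic knockout 2 or adipogenic knockout 1 or 3 (log2 -0.24 to -0.22, adjusted p 0.0520 to 0.0686), in that order of genes.

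Cycs, cytochrome c, stood at 18.8, 16.7 and 18.6 FPKM in control and 20.2, 18.7 and 19.1 FPKM in libraries labelled knockout in osteogenic medium, and 26.5, 21.4 and 26.8 FPKM in control and 22.2, 18.6 and 19.4 FPKM in libraries labelled knockout in adipogenic medium. Adipogenic control libraries 1 and 3 were highest, and the genotypes differed by -0.30 (limma adjusted p 0.0332) in adipogenic medium and the media by 0.44 (limma adjusted p 0.00998) in control libraries. The first of these calls was lost without control 1 or 3 or knockout 2 or 3 (log2 -0.28 to -0.24, adjusted p 0.0998 to 0.114), and without control library 2 it was -0.40 (adjusted p 0.00160). Usmg5, a small subunit of complex V whose symbol does not match the rule, ranged over 146 to 211 FPKM and rose between the media by 0.31 (limma adjusted p 0.0115) in control libraries and 0.30 (limma adjusted p 0.00759) in libraries labelled knockout. Ndufab1, the acyl carrier protein that is also a part of complex I, ranged over 4.53 to 5.88 FPKM, with no comparison past the threshold of limma (lowest adjusted p 0.0661).

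Of 49 assembly factors, 43 were tested. Between the genotypes 1 was called higher in osteogenic medium (2.33%, beside 4.94% of all genes). This was Tmem70, which helps to build complex V, at 0.23 (limma adjusted p 0.0261), lost without control 1 or 3 or knockout 1, 2 or 3 (log2 0.20 to 0.25, adjusted p 0.0623 to 0.102). In adipogenic medium 6 rose (14%) and 2 fell (4.65%), beside 16.7% and 16.5% of all genes. Coa6, for the copper of complex IV, rose by 0.63 (limma adjusted p 0.00338), Ndufaf7 of complex I by 0.36 (limma adjusted p 0.0166), Cox14 by 0.24, Acad9 by 0.23, Tmem70 by 0.18 and Cmc1 by 0.17, while Coa5 had -0.37 (limma adjusted p 0.00968) and Cox15, for heme A, -0.24 (limma adjusted p 0.0180). Of these only Coa6 and Coa5 kept their call whichever library was left out, and without control library 2 they had 0.78 (adjusted p 4.54e-05) and -0.49 (adjusted p 2.26e-05). Between the media 3 were higher and 3 lower in control libraries (Coa3 0.26, Cox18 0.25, Uqcc1 0.17, Ndufaf6 -0.35, Acad9 -0.22, Cmc1 -0.22), and 3 higher in libraries labelled knockout (Cox19 0.29, Cox14 0.20, Uqcc1 0.16), and of these only Cmc1 kept its call whichever library was left out. Each count of 3 is 6.98% of those tested. Of all genes 10.5% were higher and 12.3% lower in control libraries, and 13.9% higher in libraries labelled knockout.

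Of 15 regulators of mitochondrial gene expression, 14 were tested, and the coactivator Ppargc1a stayed under 1 FPKM in every library. Between the genotypes in adipogenic medium 2 of the 14 fell (14.3%, beside 16.5% of all genes). These were Polg2, a part of the mitochondrial DNA polymerase, at -0.26 (limma adjusted p 0.0231) and Gabpa, an ETS factor, at -0.16 (limma adjusted p 0.0116). Gabpa kept its call whichever library was left out, with -0.19 (adjusted p 0.00149) without control library 2, and Polg2 lost it without control 1 or 3 or knockout 1, 2 or 3 (log2 -0.27 to -0.23, adjusted p 0.0513 to 0.0823). In osteogenic medium no regulator passed the threshold of limma, and 1 was lower at an unadjusted p under 0.05. Between the media in control libraries the helicase gene Twnk rose by 0.24 (limma adjusted p 0.0260), and Tfb2m, a factor of mitochondrial transcription, had -0.20 (limma adjusted p 0.0137), lost without osteogenic control 1, 2 or 3 or adipogenic control 1 (log2 0.21 to 0.26, adjusted p 0.0546 to 0.0920) and without osteogenic control 2 or adipogenic control 1 (log2 -0.19 to -0.17, adjusted p 0.0524).

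All 17 genes of the citric acid cycle and pyruvate dehydrogenase were tested. In adipogenic medium Pdha1, of pyruvate dehydrogenase, rose by 0.28 (limma adjusted p 0.00378) and Sucla2 by 0.12, while Ogdh had -0.18, lost without control 1 or 3 or knockout 2 or 3 (log2 -0.17 to -0.15, adjusted p 0.0709 to 0.0797). Pdha1 kept its call whichever library was left out, and Sucla2 lost it, among others, without control library 2, at 0.11 (adjusted p 0.0540). Between the media Mdh2 rose by 0.24 and Idh3b had -0.18 in control libraries, and in libraries labelled knockout Pdha1, Mdh2 and Sucla2 rose by 0.23, 0.20 and 0.17 and Idh2 and Suclg2 had -0.50 and -0.39. Of the calls between the media named here, those of Idh3b, Suclg2 and Pdha1 were kept whichever library was left out and the others were not. Of 13 genes of mitochondrial fatty acid oxidation, 4 rose (30.8%) and none fell in adipogenic libraries labelled knockout, beside 16.7% and 16.5% of all genes, and the largest difference was that of Acaa2, the thiolase. Acaa2 stood at 24.4, 23.9 and 25.1 FPKM in control and 20.4, 20.2 and 19 FPKM in libraries labelled knockout in osteogenic medium, and 14.5, 19.8 and 13.9 FPKM in control and 24.0, 28.3 and 28.9 FPKM in libraries labelled knockout in adipogenic medium. It was higher in 3 of 3 there, by 0.73 (limma adjusted p 0.00111) and 0.88 (adjusted p 7.27e-06) without control library 2, followed by Acadm at 0.33, Hadhb at 0.25 and Etfdh at 0.23. Between the media Acaa2 and Acadm had -0.59 and -0.39 in control libraries, and in libraries labelled knockout Acaa2 rose by 0.42, lost without osteogenic knockout 2 or 3 or adipogenic knockout 2 or 3 (log2 0.38 to 0.44, adjusted p 0.0517 to 0.0742), and Cpt1a had -0.38, lost without osteogenic knockout 2 (log2 -0.36, adjusted p 0.0517). The calls of Acaa2 and Acadm between the genotypes and between the control groups were kept whichever library was left out, and those of Hadhb and Etfdh were not. In osteogenic medium neither list had a gene past the threshold of limma.

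Mitochondrial ribosomal proteins, which translate the subunits encoded in mitochondrial DNA, were tested for 77 of 78 genes. Limma called 17 (22.1%) higher and none lower between the genotypes in adipogenic medium, with 22 higher and 1 lower at an unadjusted p under 0.05, beside the 16.7% and 16.5% of all genes. Of the 17 calls 6 were kept whichever library was left out. The largest differences there were those of Mrps6 at 0.77 (limma adjusted p 0.00142) and Mrpl34 at 0.48 (limma adjusted p 0.00514), with 0.91 (adjusted p 4.57e-05) and 0.53 (adjusted p 0.00233) without control library 2. In osteogenic medium 2 were higher (2.60%, beside 4.94% of all genes) and none lower, with 7 and 1 at an unadjusted p under 0.05. Neither of these calls was kept whichever library was left out. Between the media 7 were higher in control libraries (9.09%, beside 10.5% of all genes), of which 2 were kept whichever library was left out, and 19 in libraries labelled knockout (24.7%, beside 13.9% of all genes), of which 5 were. Of 7 thermogenic genes only Ucp2 was tested, a mitochondrial carrier present in many cell types. It stood at 96.6, 104 and 105 FPKM in control and 74.6, 74.0 and 71.2 FPKM in libraries labelled knockout in osteogenic medium, and 61.2, 64.6 and 56.5 FPKM in control and 54.9, 64.9 and 66.6 FPKM in libraries labelled knockout in adipogenic medium. In osteogenic medium the libraries labelled knockout were below the controls, with -0.47 (limma adjusted p 0.00443), and in adipogenic medium the groups overlapped at 0.03 (adjusted p 0.807). Between the media it had -0.74 in control libraries, kept whichever library was left out, and -0.24 in libraries labelled knockout, lost without osteogenic knockout 1, 2 or 3 or adipogenic knockout 1 or 2 (log2 -0.27 to -0.15, adjusted p 0.0503 to 0.109).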

How the data were processed

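RNA-seq values of 12 libraries in 4 groups of 3 were analysed. The authors deposited FPKM for 54532 genes by Ensembl identifier, of which 54495 (99.9%) were matched to GENCODE M21 on GRCm38. The submitters' notes list Bowtie 0.12.2 and mm9, while the paper names HISAT2 and Ballgown. With M21 exonic lengths, 98.2% to 98.4% of values under 30 fragments were whole numbers of fragments (tolerance 0.02, 4% by chance), which gave the depths. The procedure was run on simulated libraries that all had the same spread and no library apart. The adipogenic groups are unlike this, so the run does not bear on their calls.

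Genes with at least 1 FPKM in at least 3 libraries were fitted as log2(FPKM + 1) with limma 3.58.1 in R 4.3.3 (a mean per group, mean-variance trend, Benjamini-Hochberg adjustment over all 12871 genes, threshold 0.05). DESeq2 and edgeR were not used. Comparisons were knockout label against control in each medium, their interaction, and adipogenic against osteogenic medium in each genotype. Alternatives were a pseudocount of 0.1, no filter, TPM, median ratio scaling, no trend, replicate number as a block, a fit of only the libraries compared, each library left out in turn and, chosen after seeing the data, limma voom on recovered fragments. Tables and figures were made with Python 3.11.15, numpy 2.4.6, pandas 2.3.3 and matplotlib 3.10.9.

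Members, marker lists and pathway lists were chosen with earlier results of these data known, so no set test was made. Named members are up to 3 per complex, comparison and direction with the largest log2 difference among those past the threshold whose groups do not overlap, together with isoform sets, c-ring genes, Atpif1, core or catalytic members, Cycs, Ndufab1 and the genes past the threshold in the pathway lists. Of the mitochondrial ribosomal proteins only the extremes are named. Some genes that these rules name are not reported here. Other assays of the paper were not analysed here.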

Additional observations from a re-analysis of the deposited data

Results flagged for a closer look

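For the genes named here the difference between genotypes was not the same in both media according to the limma interaction (log2 difference in adipogenic medium minus that in osteogenic medium, adjusted p under 0.05 over all genes). The values in parentheses are the differences in osteogenic and adipogenic medium. Each group holds 3 libraries, too few to test a library as an outlier. Among the members, Ndufa12 had 0.99 (-0.50 and 0.49, adjusted p 0.0239), Cox6a2 had 0.90 (0.30 and 1.20, adjusted p 0.0322) and Cox7a2l had 0.32 (-0.09 and 0.24, adjusted p 0.00330). Cox6a2 reached 1 FPKM only in libraries labelled knockout, so that it was tested only because those groups are high, and with no filter its interaction was not called (adjusted p 0.0739).

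Among genes of the same pathway, mt-Atp8, a subunit encoded in mitochondrial DNA, had -1.15 (0.73 and -0.43, adjusted p 0.0487). Of the assembly factors Coa5 had -0.43 (0.06 and -0.37, adjusted p 0.0344) and Cmc1 had 0.23 (-0.06 and 0.17, adjusted p 0.0414), and of the regulators Gabpa had -0.18 (0.02 and -0.16, adjusted p 0.0457). In the citric acid cycle Sucla2 had 0.20 (-0.07 and 0.12, adjusted p 0.0385). In fatty acid oxidation Acaa2 had 1.02 (-0.29 and 0.73, adjusted p 0.00210), Acadm had 0.47 (-0.15 and 0.33, adjusted p 0.00961) and Etfdh had 0.30 (-0.07 and 0.23, adjusted p 0.0365). Of the mitochondrial ribosomal proteins Mrpl9 had 0.40 (-0.10 and 0.30, adjusted p 0.0205), Mrps11 had 0.30 (0.08 and 0.38, adjusted p 0.0207), Mrpl12 had 0.30 (-0.07 and 0.23, adjusted p 0.0434), Mrpl19 had 0.26 (-0.13 and 0.13, adjusted p 0.0311) and Mrpl55 had -0.29 (0.21 and -0.08, adjusted p 0.0208). The carrier Ucp2 had 0.50 (-0.47 and 0.03, adjusted p 0.010).

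Leaving out each of the 12 libraries in turn kept the calls of Cox7a2l, Acaa2, Acadm and Ucp2 every time. The others were lost in part of these fits, namely in 2 of 12 for Mrpl55, 3 of 12 for Ndufa12, 3 of 12 for Mrpl9, 3 of 12 for Mrps11, 6 of 12 for Cox6a2, 9 of 12 for mt-Atp8, 9 of 12 for Cmc1, 9 of 12 for Mrpl12, 10 of 12 for Coa5, 10 of 12 for Sucla2, 10 of 12 for Etfdh, 10 of 12 for Mrpl19 and 11 of 12 for Gabpa.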

How the results depend on the processing

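Of the counts and complex medians, 444 of the values recomputed under the alternatives stayed within 1.5 times the count or within the spread between replicates, and 81 did not. Of the calls of single members, 453 kept direction and threshold, 163 kept direction and missed the threshold, and 1 changed direction. A pseudocount of 0.1 and no trend left every count of members past the threshold of limma within 1.5 times its value. At an unadjusted p under 0.05, no trend gave 1 member lower between the media in control libraries, against 2 in the main fit. For each value listed here that moved, the cause was not tested.

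Rescaling to TPM moved the most values. In adipogenic medium it gave 25 members higher and 1 lower in libraries labelled knockout, in the interaction 6 above 0, between the media 0 higher in control libraries, and 7 higher and 0 lower in libraries labelled knockout. The median differences of complexes I to V as TPM were 0.28, 0.24, 0.30, 0.24 and 0.24 between the genotypes in adipogenic medium, 0.24, 0.30, 0.25, 0.19 and 0.18 in the interaction, -0.12, -0.24, -0.0708, 0.0149 and -0.0708 between the media in control libraries and 0.14, 0.0339, 0.19, 0.16 and 0.12 in libraries labelled knockout. Cox7a2 in adipogenic medium changed to 0.0503. Median ratio scaling gave 1 member below 0 in the interaction. With no filter on low values 30520 genes were tested, and 1 member was above 0 in the interaction, 5 were higher between the media in control libraries and 1 was lower in libraries labelled knockout. The shares of all genes were then 3.66%, 2.93% and 5.08%, in the same order.

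Fitted on only the libraries compared, 2 members were higher and 3 lower in osteogenic medium, 4 higher and 1 lower in adipogenic medium, 1 higher and 0 lower between the media in control libraries, and 20 and 2 in libraries labelled knockout. Between the media in control libraries 1.38% of all genes were then higher and 2.42% lower.

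With the replicate number as a paired term (replicate block), 2 members were lower in osteogenic medium, 1 was lower in adipogenic medium and 0 were lower between the media in libraries labelled knockout. Of all genes 3.51%, 16.1% and 13.7% were then lower, in the same order. Libraries of the same number need share nothing but the number. After each group's mean was taken out, control and knockout-labelled libraries of the same number correlated across genes with r of -0.0375, 0.0576 and -0.0295 in osteogenic and 0.466, 0.397 and -0.286 in adipogenic medium, and not every library correlated best with its own number.

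Leaving out each library in turn gave 5 to 18 members higher and 1 to 4 lower in adipogenic medium, 1 to 7 above and 0 to 4 below 0 in the interaction, 4 to 14 higher and 1 to 6 lower between the media in control libraries, and 7 to 17 higher and 0 to 1 lower in libraries labelled knockout. In osteogenic medium each such fit gave 0 higher and 1 lower, against 2.37% to 3.08% and 1.76% to 2.12% of all genes. For the interaction the shares of all genes were 7.33% to 19.7% above and 6.50% to 22.5% below 0. Between the genotypes in adipogenic medium the complex medians ranged over 0.0443 to 0.11 for complex I, 0.00885 to 0.10 for complex II, -0.0114 to 0.0604 for complex IV and -0.00478 to 0.0788 for complex V, so that complexes IV and V changed sign, the former without knockout 2 and the latter without control 3. In the interaction complex V ranged over -0.0626 to 0.0217. Between the media in control libraries the ranges were -0.15 to -0.0665 for complex II, 0.0180 to 0.0893 for complex III, 0.0508 to 0.19 for complex IV and 0.0245 to 0.12 for complex V, and in libraries labelled knockout -0.0664 to 0.0258 for complex II and 0.0889 to 0.19 for complex III. Limma voom, chosen after seeing the data, gave the counts stated with each comparison.

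The depth limits the low isoforms most, since Cox6a2, Cox6b2 and Cox4i2 lie within a few times the level of 3 fragments per kb in several libraries. With 3 libraries a group, differences under about the spread between libraries are not detectable. The deposited values are per gene, so splice forms were not resolved, and protein and oxygen use were not analysed here.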
